A study of Mus musculus with 24 samples.

Results

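Complement and coagulation proteins are plasma proteins that the liver makes and secretes, and their transcripts were followed here as a list of 39 genes matched by symbol. The deposited tables held 38 of the 39 genes among 41388 features, and all 38 passed the filter on low counts. Klkb1, which encodes prekallikrein, could not be matched to a row by its identifier and has no value here. The genes came from a liver RNA-seq study of genotype by feeding, with levels read from oligo-dT selected RNA. The knockout livers (LSALT2KO) came from mice with a liver-specific knockout of alanine transaminase 2, encoded by Gpt2, and the controls were floxed (fl/fl). Mice of both genotypes were either fasted for 18 h or fed ad libitum, and each sample title carries the letter M. The labels name neither the driver of the deletion nor the age of any mouse. The libraries used were 6 of fasted knockout livers, 5 of fasted control livers, 6 of fed knockout livers and 5 of fed control livers. No label states that libraries of a group come from separate animals, and the p-values then reflect only the variation from library to library, part of which may be technical.

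Complement is a cascade of proteases that tags microbes and debris. Its classical and lectin pathways start when recognition proteins activate C1r, C1s or the MASP proteases, which build a convertase that splits C3. Downstream, C6, C8 and C9 assemble with other parts into the membrane attack complex. Coagulation is a parallel cascade in which tissue factor with factor VII, or the contact system, leads through factor X to thrombin, which turns fibrinogen into fibrin. Antithrombin, heparin cofactor II, protein C and protein S restrain clotting, and plasmin dissolves the clot. Hepatocytes are the main source of most of these proteins, and several of them belong to the acute phase response.

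RefSeq promoter windows (GRCm38.p6, 250 bases before to 50 bases after the start of transcription) were found for 30 of the 39 genes. The stretches below are the 250 bases before the start, 5′ to 3′ on the strand of the gene. They are shown because fibrinogen's 3 genes and the C8 alpha and beta chain genes lie next to each other and were lower together in fasted control livers, because Mbl2 showed the lowest fold change in fasted knockout livers, and because Serpinc1 was called in no comparison. Capitals mark any match, on either strand, to 1 of 5 motifs. These were TATAAA for the TATA box, GTTAAT for the hepatocyte transcription factor HNF1, CAAAGTC for HNF4, TTGCAA for the C/EBP core and CTGGGAA for the IL-6 response element.
Fga (chr3:83025903-83026152, plus strand): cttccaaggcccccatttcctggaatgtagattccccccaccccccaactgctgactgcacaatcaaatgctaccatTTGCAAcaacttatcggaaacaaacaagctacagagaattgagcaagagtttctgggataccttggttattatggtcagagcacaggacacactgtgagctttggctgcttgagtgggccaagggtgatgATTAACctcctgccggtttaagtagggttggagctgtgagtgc
Fgb (chr3:83049864-83050113, minus strand): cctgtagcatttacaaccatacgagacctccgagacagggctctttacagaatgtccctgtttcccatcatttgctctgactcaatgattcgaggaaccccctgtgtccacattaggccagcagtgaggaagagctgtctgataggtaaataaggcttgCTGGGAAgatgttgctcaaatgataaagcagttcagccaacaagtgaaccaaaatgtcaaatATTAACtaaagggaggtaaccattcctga
Fgg (chr3:83007474-83007723, plus strand): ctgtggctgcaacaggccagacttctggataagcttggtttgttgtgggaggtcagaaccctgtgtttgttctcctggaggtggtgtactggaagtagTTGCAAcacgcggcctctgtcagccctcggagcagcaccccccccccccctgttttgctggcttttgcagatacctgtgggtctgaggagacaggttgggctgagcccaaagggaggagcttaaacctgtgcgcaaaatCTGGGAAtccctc
C8a (chr4:104876399-104876648, minus strand): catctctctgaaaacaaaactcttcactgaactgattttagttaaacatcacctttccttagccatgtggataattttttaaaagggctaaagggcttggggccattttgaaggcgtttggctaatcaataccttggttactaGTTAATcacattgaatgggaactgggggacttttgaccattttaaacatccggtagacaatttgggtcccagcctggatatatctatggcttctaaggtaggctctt
C8b (chr4:104766067-104766316, plus strand): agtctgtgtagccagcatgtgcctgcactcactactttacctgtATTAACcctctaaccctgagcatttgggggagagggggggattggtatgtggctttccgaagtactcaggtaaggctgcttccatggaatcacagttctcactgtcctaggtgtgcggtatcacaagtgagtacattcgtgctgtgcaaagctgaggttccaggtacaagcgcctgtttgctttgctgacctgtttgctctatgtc
Mbl2 (chr19:30232678-30232927, plus strand): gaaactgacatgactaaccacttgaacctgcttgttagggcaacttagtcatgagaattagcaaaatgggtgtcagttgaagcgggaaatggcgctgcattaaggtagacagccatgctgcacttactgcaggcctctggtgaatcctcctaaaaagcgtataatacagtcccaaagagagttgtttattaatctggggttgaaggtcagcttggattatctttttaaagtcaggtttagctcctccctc
Serpinc1 (chr1:160978333-160978582, plus strand): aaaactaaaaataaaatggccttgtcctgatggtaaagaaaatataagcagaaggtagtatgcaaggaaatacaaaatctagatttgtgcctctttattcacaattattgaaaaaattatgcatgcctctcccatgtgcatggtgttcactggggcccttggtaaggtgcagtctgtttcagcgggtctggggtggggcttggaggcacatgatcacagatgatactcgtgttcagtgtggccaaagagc

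The HNF1 motif GTTAAT stood in 8 of the 30 members' windows of 300 bases (26.7%), against 7.2% of 27025 genes. It lay on the opposite strand at positions -43 to -38 from the start of Fga, -29 to -24 of Fgb and -206 to -201 of C8b, and on the same strand at -107 to -102 of C8a. TTGCAA was found in 5 members (16.7%), against 6.25% of all genes, and among the sequences above it lay at -173 to -168 of Fga and -152 to -147 of Fgg. CTGGGAA was found in 7 members (23.3%), against 11.1% of all genes, at -91 to -85 of Fgb and at -13 to -7 of Fgg among those shown. TATAAA was found in 2 members (6.67%), against 14.2% of all genes, and CAAAGTC in 0 members, against 4.36%. The motifs do not overlap in the printed stretches. These are matches of letters, counted without a test.

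Levels are given as RPKM, which are read counts scaled by gene length and library size, computed from the deposited counts with TMM-scaled library sizes, so that genes can be set side by side. The length is that of all exonic bases annotated for a gene, and comparisons between genes depend on it. The libraries held 18390437 to 55284550 assigned reads. The least covered member, Cfb, had 50 to 495 reads per library, and the most covered, C3, had 158154 to 604349. Of the study's 24 libraries, 2 were left out, namely 1 fasted control library that is rich in kidney transcripts and 1 fed control library whose table is truncated. In the kidney-rich library the 38 members summed to 282.8 RPKM, against 10580 to 16530 RPKM in the 22 used. Gpt2 itself ran from 9.24 to 26.3 RPKM in fasted knockout livers and from 98.8 to 140.8 RPKM in fasted controls, and from 8.55 to 13.8 RPKM in fed knockout livers and from 54.4 to 79.2 RPKM in fed controls, so no used library went against its genotype label.

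The members differed widely in level. The fibrinogen beta chain gene Fgb averaged 2309 RPKM over the 22 libraries, C3 averaged 2039 RPKM and Fgg averaged 1321 RPKM, which placed them at ranks 24, 29 and 44 of all genes. Fgb exceeded C3 in 15 of 22 libraries, so the order of these neighbours was not fixed, whereas C3 exceeded Fgg and Fgg exceeded Fga in 22 of 22. The order of Fgg and Fga depends on the annotated lengths of 1564 and 3358 bases. In reads, Fga had 43552 to 194030 per library and Fgg 25696 to 123051. The lowest members were Pros1, which encodes protein S, at 13.3 RPKM, C2 at 4.27 RPKM and Cfb, the protease of the alternative pathway convertase, at 1.86 RPKM, in that order in every used library. The levels of Cfb and C2 are uncertain, because 79.5% of the exonic bases of Cfb and 46.9% of those of C2 are shared with overlapping annotated genes. Gm20547, which overlaps both, had 0 reads in every group, so reads on shared bases may be counted for neither gene. The levels of Cfb and C2 may then be too low, and the order of these 2 genes may follow from the annotation. The shared part of the exonic bases was 54.9% for Masp2, with Tardbp as the partner, 18.4% for C1s1 and 3.53% for F5.

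**Figure D1:**
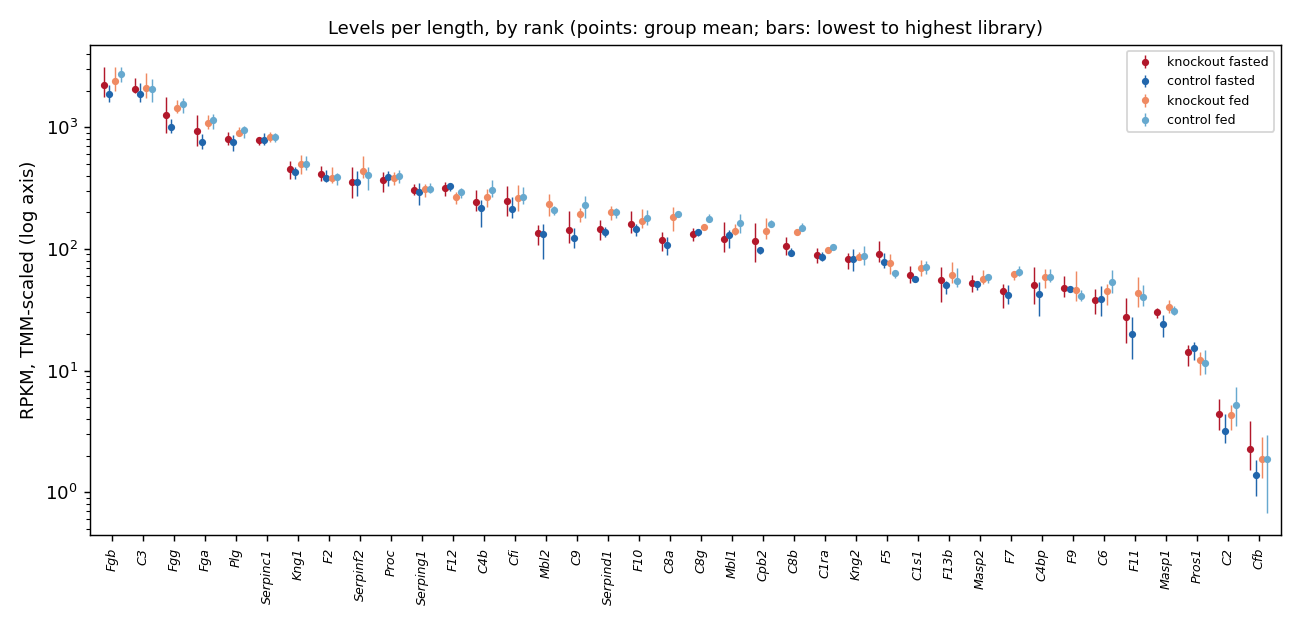
Level of each of the 38 members per length (RPKM with TMM scaling, log axis), ordered by the mean over 22 libraries. Points are group means for fasted knockout, fasted control, fed knockout and fed control livers, and bars run from the lowest to the highest library. Fgb, C3 and Fgg lead, and Pros1, C2 and Cfb end the order.

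The first question was what an 18 h fast did to these transcripts. A gene is said to have fallen or risen where edgeR's quasi-likelihood test gave an adjusted p (Benjamini-Hochberg over 16757 genes) under 0.05, and fold changes are fasted over fed. Transcripts of C6, C8, C9, fibrinogen, Mbl2, F7, F11, Serpind1 and Cpb2 were lower in fasted control livers. Those of C3, prothrombin and antithrombin were called in no comparison. In controls 17 of 38 members fell and 0 rose, where 8.12% of the genes tested were called in either direction, 4.13% lower and 3.99% higher. In knockout livers 6 of 38 fell and 0 rose, where 6.14% of genes were called, 3.26% lower and 2.88% higher. With the fasting effect averaged over genotypes, 20 fell and 2 rose, where 14.3% of genes were called, with 7.26% of all genes lower and 7.08% higher. The median log2 fold change of the members was -0.35 in controls, -0.14 in knockout livers and -0.26 averaged, while that of all genes was 0.00, 0.01 and 0.01. Called in both genotypes were 6 members, namely C8a, C8b, C9, F7, Mbl2 and Serpind1. Another 11 were called in controls and not in knockout livers, and 0 in knockout livers and not in controls. The interaction, given further on, did not pass for any member.

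These counts depended on which libraries entered. Without replicate 5 of the fasted controls, 12 members fell in controls, and this library also had the highest sum of kidney markers of the 22, at 19.5 RPKM, against 3.98 RPKM in the next highest. The kidney-rich library that was left out had 11050 RPKM, and a link between such a trace and the calls was not tested. Without replicate 4 of the fasted knockout livers, 19 members were called in controls and 8 in knockout livers. With the kidney-rich library put back, 1 member fell in controls, 0 in knockout livers and 0 in the averaged comparison. Fewer cells of a type and less RNA per cell cannot be told apart in such bulk samples.

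**Figure D2:**
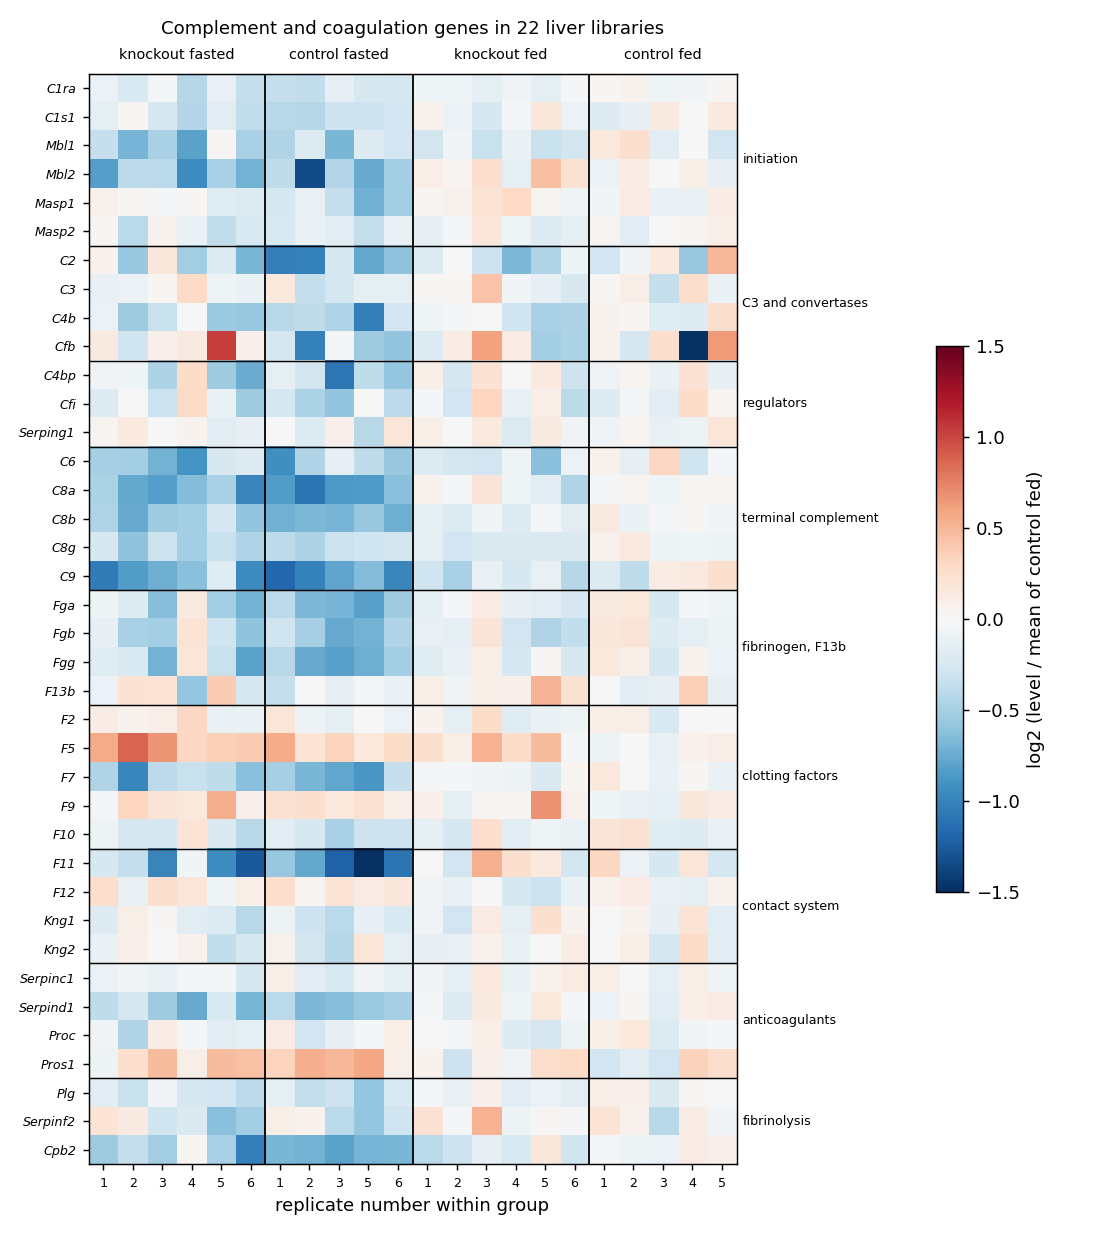
Log2 ratio of each member's level to its mean in fed control livers, for 22 libraries (columns, by group and replicate) and 38 genes (rows, by role). Blue is lower and red higher, and the colour scale is truncated at its ends. C8a, C8b, C9, Fga, Fgb and Fgg are below their fed control mean in all 5 fasted control columns.

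Terminal complement is the part that forms the pore, and all 5 of its listed members fell in controls. C7, another part of the pore, belongs to the further complement genes given below and was not called in controls. In fasted knockout livers 3 of 5 genes fell, in fasted controls 5 of 5 and in the averaged comparison 5 of 5. C8a, the alpha chain of C8, had 96.4 to 138 (median 118) RPKM in fasted knockout livers and 140.2 to 219.5 (median 186) RPKM in fed knockout livers. In fasted controls C8a had 107, 89.5, 106, 107 and 124 RPKM, against 187, 197, 183, 193 and 198 RPKM in fed controls. The fasted and fed libraries did not overlap in either genotype. The fasted mean was 64.7% of the fed mean in knockout livers (log2 -0.63 ± 0.11 SE, adjusted p = 1.26e-04) and 55.7% in controls (log2 -0.85 ± 0.12 SE, adjusted p = 6.00e-06).

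C8b, the beta chain, ran the same way. It had 88.3 to 126 (median 104) RPKM in fasted knockout livers and 129.7 to 147 (median 134) RPKM in fed knockout livers. Fasted controls had 90.5, 93.8, 92.1, 101 and 89.5 RPKM and fed controls 163, 139.8, 147, 151 and 145 RPKM. Again no fasted library reached the lowest fed library of its genotype. The log2 change was -0.38 ± 0.09 in knockout livers and -0.68 ± 0.099 in controls (adjusted p = 0.00566 and 1.16e-05). C8b (chr4:104766317-104804548, plus strand) and C8a (chr4:104815679-104876398, minus strand) lie 11130 bases apart in the gene models of the deposited tables (GRCm38), whose starts can differ from those of RefSeq.

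C9, the pore-forming unit itself, was more variable. It had 112 to 204 (median 135) RPKM in fasted knockout livers, against 165 to 215 (median 192) RPKM in fed knockout livers, and these ranges overlapped through replicate 5 of the fasted knockout group at 204.2 RPKM. In fasted controls it had 103, 114, 134, 148 and 118 RPKM and in fed controls 200.2, 178, 251, 256 and 273 RPKM, with no overlap. In knockout livers the log2 change was -0.43 ± 0.13 SE (adjusted p = 0.0376), and in controls it was -0.91 ± 0.14 SE (adjusted p = 3.20e-05). The knockout call was lost when any 1 of 8 knockout libraries was left out, with log2 changes between -0.43 and -0.37, and also when only the knockout groups were fitted.

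The gamma chain of C8 had smaller fold changes than the alpha and beta chains, a difference between genes that was not tested. C8g had 116 to 148 (median 134) RPKM in fasted knockout livers and 144 to 159.7 (median 151) RPKM in fed knockout livers, a difference that did not pass (log2 -0.19 ± 0.087 SE, adjusted p = 0.248). Fasted controls had 133, 128, 141, 143 and 146 RPKM, against 184, 194, 166, 168 and 166 RPKM in fed controls (log2 -0.35 ± 0.095 SE, adjusted p = 0.0165). The ratio of C8g to C8a was 1.13 ± 0.152 in fasted and 0.84 ± 0.133 in fed knockout livers (SD, n = 6 each), and 1.30 ± 0.0971 in fasted and 0.916 ± 0.0656 in fed controls (SD, n = 5 each). The ratio of C8b to C8a was 0.89 ± 0.0953 in fasted and 0.759 ± 0.119 in fed knockout livers, and 0.885 ± 0.122 in fasted and 0.779 ± 0.0634 in fed controls. C6 fell in controls (log2 -0.47 ± 0.14 SE, adjusted p = 0.0354) and did not pass in knockout livers (log2 -0.24 ± 0.13 SE, adjusted p = 0.38). The control call of C6 was lost without any 1 of 7 control libraries (log2 -0.48 to -0.37), and that of C8g without any 1 of 3 (log2 -0.33 to -0.31). Library totals in place of TMM factors ended the call of C6, and dropping the filter on low counts ended that of C8g.

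**Figure D3:**
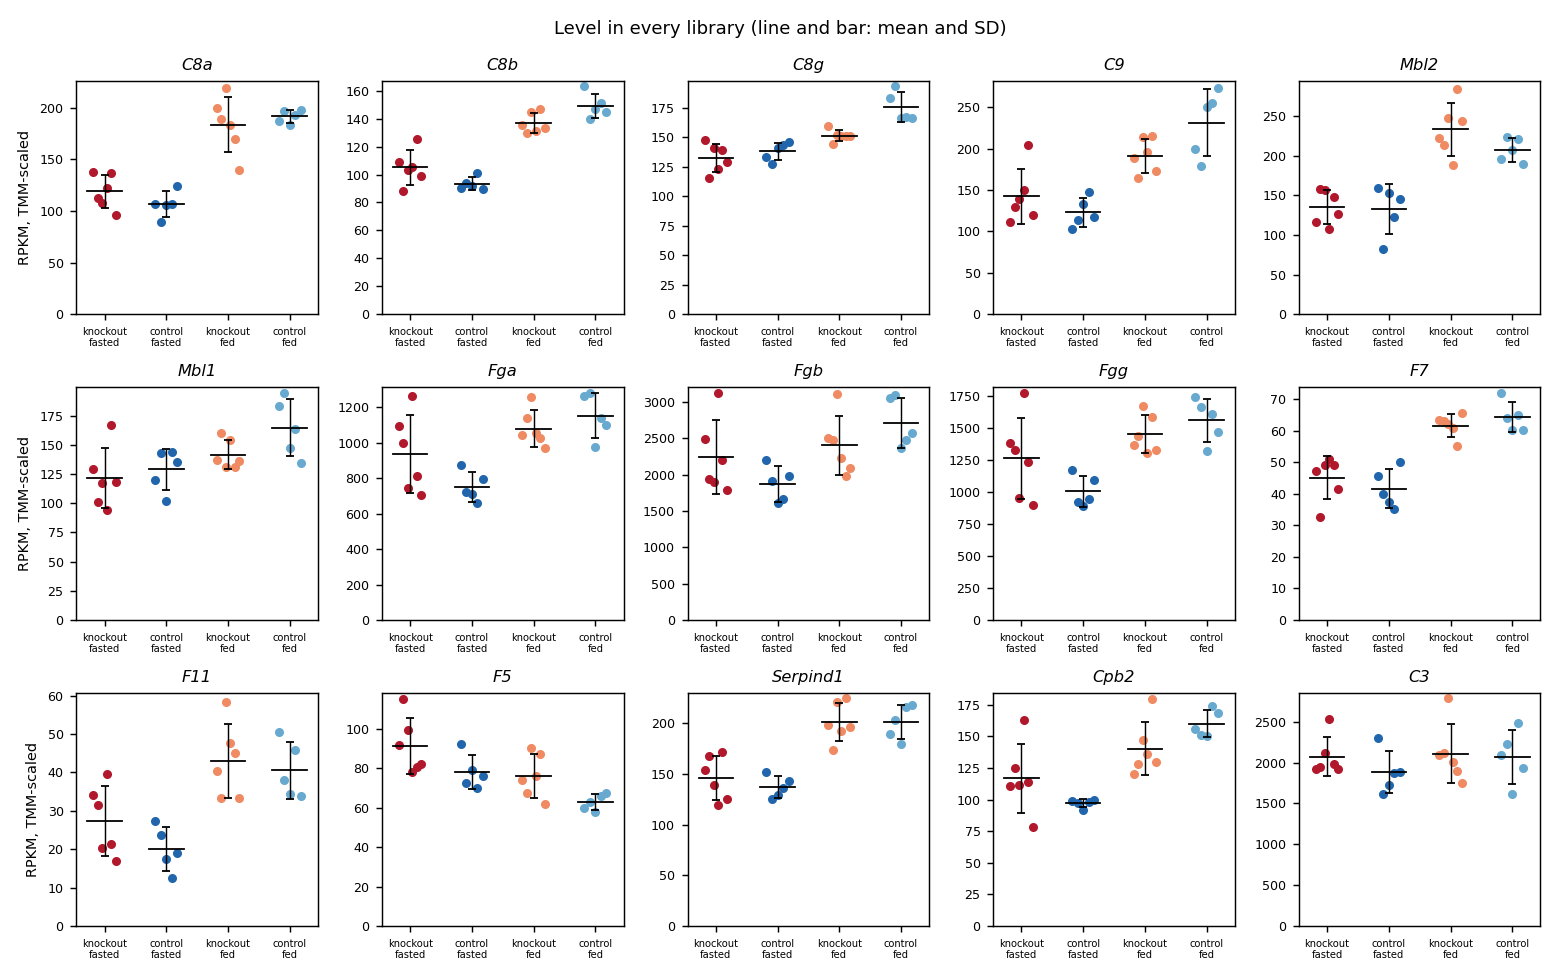
Level of 15 members (RPKM with TMM scaling, linear axes from 0) in every library of fasted knockout, fasted control, fed knockout and fed control livers. The line is the group mean and the bar its SD. C8a, C8b, Mbl2, F7 and Serpind1 show no overlap between fasted and fed libraries of either genotype, while C3 overlaps throughout.

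Initiators of the classical and lectin pathways fell in part. In fasted controls 3 of 6 fell, in fasted knockout livers 1 of 6, and in the averaged comparison 5 of 6. Mbl2, a mannose-binding lectin that recognises microbial sugars, had 108 to 158 (median 138) RPKM in fasted knockout livers, against 188 to 285 (median 233) RPKM in fed knockout livers. Fasted controls had 159.5, 82.1, 154, 123 and 146 RPKM and fed controls 196, 224, 207, 221 and 190.2 RPKM. The groups did not overlap in either genotype, and replicate 2 of the fasted controls was the lowest of all. Mbl2 fell to 58.1% of the fed mean in knockout livers (log2 -0.78 ± 0.13 SE, adjusted p = 7.89e-05) and to 64.0% in controls (log2 -0.64 ± 0.14 SE, adjusted p = 0.0025).

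Its paralog Mbl1 fell in the averaged comparison and was called in neither genotype alone. It had 94.5 to 167 (median 118) RPKM in fasted knockout livers and 131 to 160.5 (median 136) RPKM in fed knockout livers, and 120.1, 143, 102, 144 and 135 RPKM in fasted controls and 183, 194, 147, 164 and 135 RPKM in fed controls. These ranges overlapped, and the averaged log2 change was -0.29 ± 0.09 SE (adjusted p = 0.0259). The Mbl2 to Mbl1 ratio was 1.15 ± 0.261 in fasted and 1.67 ± 0.357 in fed knockout livers (SD, n = 6 each), and 1.07 ± 0.37 in fasted and 1.28 ± 0.157 in fed controls (SD, n = 5 each). Masp1, a lectin pathway protease, fell in controls (log2 -0.37 ± 0.11 SE, adjusted p = 0.0311) and C1s1, the effector protease of C1, did too (log2 -0.35 ± 0.11 SE, adjusted p = 0.0354). C1ra, which activates C1s, fell in the averaged comparison (log2 -0.19 ± 0.065 SE, adjusted p = 0.0414). Single libraries decided these calls: leaving out 1 library lost the call of Masp1 for 6 libraries, of C1s1 for 8, of C1ra for 15 and of Mbl1 for 5. Library totals ended the calls of C1s1 and C1ra, dropping the filter ended those of Masp1, C1s1 and C1ra, and fitting only the control groups ended that of Masp1. Masp2 was not called.

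Of C3 and the parts of its convertases, C4b and C2 were called in controls, and C3 and Cfb were not. Differences between these genes were not tested. C4b, a convertase part, had 207 to 306 (median 228) RPKM in fasted knockout livers and 219.9 to 309 (median 272) RPKM in fed knockout livers, with wide overlap (log2 -0.12 ± 0.13 SE, adjusted p = 0.783). Fasted controls had 229, 236, 224, 150.5 and 251 RPKM and fed controls 317, 312, 271, 269 and 365 RPKM, with no overlap (log2 -0.49 ± 0.14 SE, adjusted p = 0.021). Both that call and the averaged one were lost without replicate 5 of the fasted controls or without replicate 5 of the fed controls, with control changes of log2 -0.42 to -0.38. C2, the protease part, had a log2 change of 0.02 ± 0.18 SE in knockout livers and -0.70 ± 0.2 SE in controls, where it fell (adjusted p = 0.0236). That call was lost without any 1 of 5 control libraries (log2 -0.67 to -0.53), and the averaged comparison did not call C2.

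C3 was among the most abundant members and did not pass in any comparison. It had 1924 to 2537 (median 1962) RPKM in fasted knockout livers and 1751 to 2794 (median 2051) RPKM in fed knockout livers, and 2304, 1621, 1731, 1875 and 1887 RPKM in fasted controls and 2095, 2226, 1613, 2490 and 1929 RPKM in fed controls. The change was -0.03 ± 0.12 in knockout livers and -0.14 ± 0.13 in controls. Cfb, the least covered member, was not called either (log2 -0.44 ± 0.31 SE, adjusted p = 0.506 in controls). Of the regulators, C4bp, which binds the C4b protein, fell in the averaged comparison (log2 -0.34 ± 0.11 SE, adjusted p = 0.0364), and its call was lost without any 1 of 12 libraries (log2 -0.34 to -0.28). Cfi, the protease that inactivates C3b, and Serping1, the C1 inhibitor, were not called in any comparison.

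**Figure D4:**
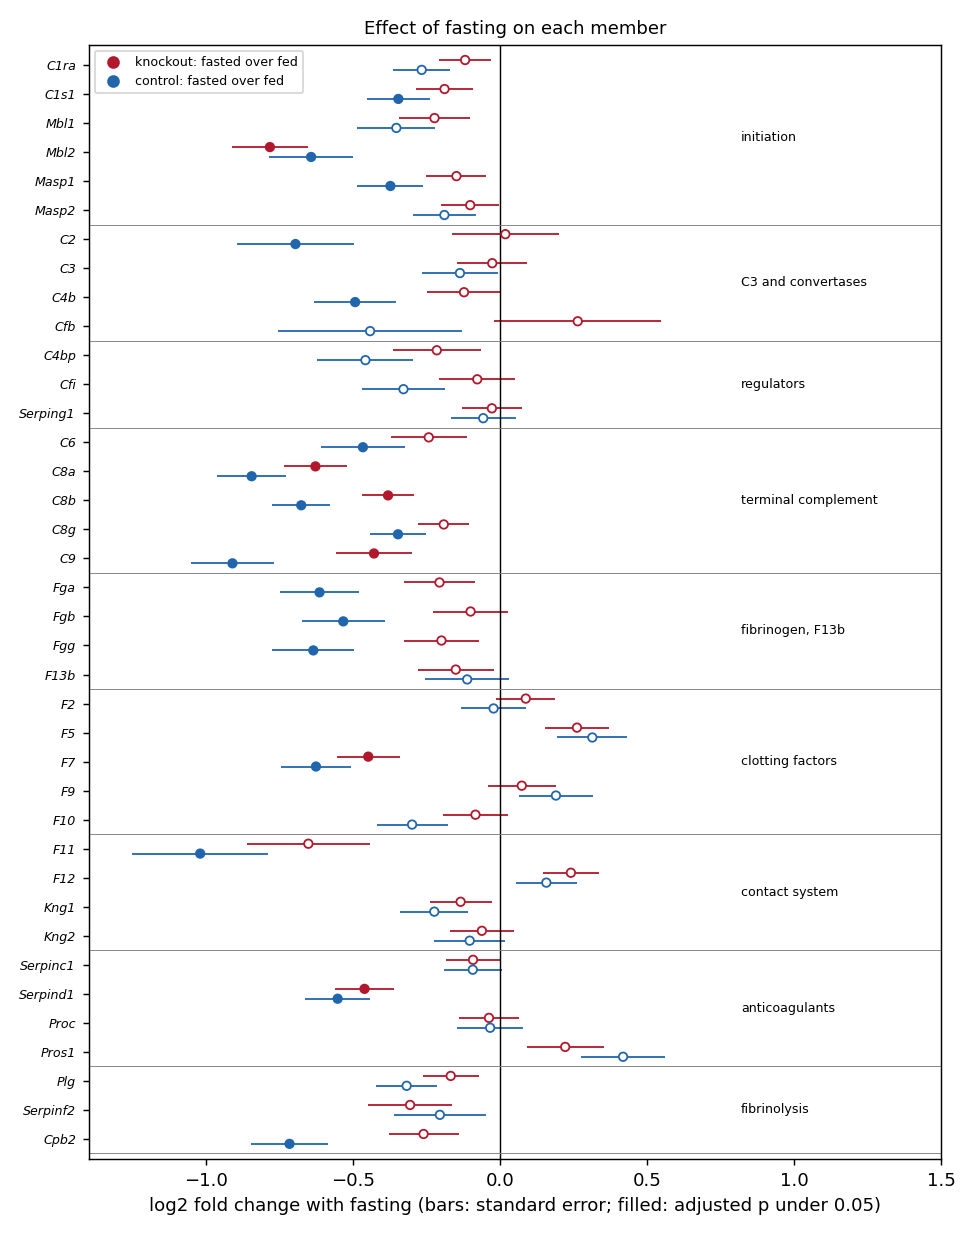
Log2 fold change of fasted over fed livers for each member, for knockout livers (red) and control livers (blue), ordered by role. Bars are standard errors and filled points have an adjusted p under 0.05. There are 6 filled red points and 17 filled blue points, all left of 0.

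Fibrinogen is built from alpha, beta and gamma chains, encoded by Fga, Fgb and Fgg within one cluster on chromosome 3. Fgg (chr3:83007859-83015053, plus strand) lies 11099 bases from Fga (chr3:83026153-83033615, plus strand), which lies 8631 bases from Fgb (chr3:83042247-83049803, minus strand). In fasted controls Fga had 875, 722, 712, 657 and 795 RPKM, against 1265, 1282, 975, 1138 and 1097 RPKM in fed controls. Every fasted control library was below every fed control library for all 3 chains. The log2 change in controls was -0.61 ± 0.13 SE for Fga (adjusted p = 0.00217). It was -0.53 ± 0.14 SE for Fgb (adjusted p = 0.0129) and -0.64 ± 0.14 SE for Fgg (adjusted p = 0.00227).

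In knockout livers the chains did not pass. Fga had 707 to 1264 (median 903) RPKM in fasted and 967 to 1254 (median 1047) RPKM in fed knockout livers. Replicate 4 of the fasted knockout livers was the highest of its group for all 3 chains, with 1264 RPKM of Fga, 3130 RPKM of Fgb and 1773 RPKM of Fgg. The knockout changes were -0.21 ± 0.12 for Fga, -0.10 ± 0.13 for Fgb and -0.20 ± 0.13 for Fgg (adjusted p = 0.458, 0.844 and 0.515). Over the 22 libraries the Fga to Fgb ratio was 0.426 ± 0.0401 and the Fgg to Fgb ratio 0.573 ± 0.0682 (SD, n = 22). F13b, the carrier subunit of the cross-linking factor XIII, was not called (log2 -0.11 ± 0.14 SE, adjusted p = 0.768 in controls).

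Among the clotting proteases and their cofactor, F7 was called lower in both genotypes. F7 encodes factor VII, the partner of tissue factor. It had 32.7 to 51.2 (median 48.1) RPKM in fasted knockout livers and 55.1 to 65.6 (median 62.6) RPKM in fed knockout livers, and 45.5, 39.9, 37.5, 35.2 and 50.1 RPKM in fasted controls and 71.9, 64.2, 60.1, 65.0 and 60.1 RPKM in fed controls. There was no overlap in either genotype, with log2 changes of -0.45 ± 0.11 SE in knockout livers (adjusted p = 0.00631) and -0.63 ± 0.12 SE in controls (adjusted p = 3.82e-04). F10, which encodes factor X and starts 1498 bases beyond F7 on chromosome 8, was not called (log2 -0.08 ± 0.11 SE in knockout livers and -0.30 ± 0.12 SE in controls). The F10 to F7 ratio was 3.62 ± 0.61 in fasted and 2.78 ± 0.408 in fed knockout livers (SD, n = 6 each), and 3.55 ± 0.462 in fasted and 2.79 ± 0.322 in fed controls (SD, n = 5 each).

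F5, which encodes the cofactor of factor X, rose in the averaged comparison (log2 0.29 ± 0.081 SE, adjusted p = 0.0122) and was called in neither genotype alone (log2 0.31 ± 0.12 SE, adjusted p = 0.11 in controls). It had 78.2 to 115 (median 87.0) RPKM in fasted knockout livers and 62.0 to 90.2 (median 75.1) RPKM in fed knockout livers. Fasted controls had 92.4, 72.5, 79.1, 70.2 and 76.2 RPKM, all above the 59.7, 63.1, 58.1, 65.7 and 67.5 RPKM of fed controls. Such a separation upwards was seen in 3.87% of all genes. F2, which encodes prothrombin, and F9, the factor deficient in haemophilia B, were not called, with F2 changes of 0.09 ± 0.1 in knockout livers and -0.02 ± 0.11 in controls.

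Of the contact system, F11 had the lowest fold change of the 38 members in controls. It had 27.3, 23.8, 17.4, 12.5 and 18.9 RPKM in fasted controls, against 50.4, 38.1, 34.3, 45.9 and 33.9 RPKM in fed controls, without overlap (log2 -1.02 ± 0.23 SE, adjusted p = 0.00577). In knockout livers F11 had 16.9 to 39.5 (median 26.5) RPKM when fasted and 33.2 to 58.4 (median 42.6) RPKM when fed, and the difference did not pass (log2 -0.65 ± 0.21 SE, adjusted p = 0.0708). F12, whose product starts the contact pathway, was not called, with an averaged log2 change of 0.20 ± 0.07 SE (adjusted p = 0.0509). The kininogen genes Kng1 and Kng2 were not called, and their ratio was 5.51 ± 0.553 in fasted and 5.77 ± 0.596 in fed knockout livers (SD, n = 6 each), and 5.29 ± 0.447 in fasted and 5.71 ± 0.293 in fed controls (SD, n = 5 each).

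The anticoagulants diverged from each other. Serpind1, heparin cofactor II, had 119 to 171 (median 147) RPKM in fasted knockout livers and 174 to 225 (median 198) RPKM in fed knockout livers. Fasted controls had 152, 126, 129, 136 and 143 RPKM and fed controls 189, 203, 179, 216 and 218 RPKM. The groups were separate in both genotypes (log2 -0.46 ± 0.1 SE, adjusted p = 0.00288 in knockout livers and log2 -0.55 ± 0.11 SE, adjusted p = 9.21e-04 in controls). Serpinc1, which encodes antithrombin, had 708 to 822 (median 798) RPKM in fasted knockout livers and 751 to 919.7 (median 836) RPKM in fed knockout livers. In fasted controls it ranged from 714.1 to 889 RPKM and in fed controls from 761.8 to 892 RPKM (log2 -0.09 ± 0.099 SE, adjusted p = 0.708). Protein C transcripts (Proc) were not called. Pros1 rose in the averaged comparison (log2 0.32 ± 0.097 SE, adjusted p = 0.0212), with 14.5, 16.8, 16.3, 17.3 and 12.2 RPKM in fasted controls and 9.47, 10.3, 9.43, 14.7 and 13.8 RPKM in fed controls, which overlapped. The Pros1 call was lost when library totals replaced the TMM factors.

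In fibrinolysis, Cpb2 and Plg were lower. Cpb2 encodes TAFI, a carboxypeptidase that slows clot lysis. It had 99.2, 97.6, 91.6, 98.4 and 99.7 RPKM in fasted controls, a tight group, against 156, 151, 149.9, 174 and 168 RPKM in fed controls (log2 -0.72 ± 0.13 SE, adjusted p = 2.80e-04). In knockout livers Cpb2 had 78.4 to 163 (median 113) RPKM when fasted and 120.3 to 179 (median 133) RPKM when fed (log2 -0.26 ± 0.12 SE, adjusted p = 0.255). Plg, which encodes plasminogen, fell in the averaged comparison (log2 -0.24 ± 0.07 SE, adjusted p = 0.0154). Serpinf2, the plasmin inhibitor, was not called.

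Counted by separation of the libraries, 16 members had every fasted control library below every fed control library, where 4.03% of all genes did so. In knockout livers 5 members did so (Mbl2, C8a, C8b, F7 and Serpind1), where 2.15% of all genes did. The opposite separation, fasted above fed, was seen in 1.81% of all genes in knockout livers. The members together took a median of 3.63% of reads in fasted and 3.95% in fed knockout livers, and 3.19% in fasted and 4.16% in fed controls. The ranges were 3.14% to 3.80% against 3.81% to 4.42% in knockout livers, and 2.94% to 3.61% against 3.70% to 4.29% in controls. The sum of 5 hepatocyte markers ranged from 43120 to 81360 RPKM in fasted and from 40840 to 69610 RPKM in fed knockout livers, and from 43010 to 77010 RPKM in fasted and from 39960 to 60160 RPKM in fed controls, with wide overlap. Of these markers 0 of 5 were called in knockout livers and 1 of 5, Apoa1, was called higher in controls. Below 0 were 0 of the 5 in either genotype. The median sum was 62370 RPKM in fasted and 48380 RPKM in fed knockout livers, and 59560 RPKM in fasted and 48490 RPKM in fed controls.

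Other cell type markers varied beside these results, and their part in them was not tested. Stellate cell markers (6 genes) had a median sum of 31.6 RPKM in fasted and 35.0 RPKM in fed knockout livers, and 32.2 RPKM in fasted and 31.7 RPKM in fed controls, with 1 of 6 called lower in knockout livers and 2 of 6 in controls. Among the called stellate genes Col3a1 fell in both genotypes and Col1a1 in controls. Kupffer cell markers (6 genes) had 59.0 RPKM in fasted and 53.9 RPKM in fed knockout livers, and 37.1 RPKM in fasted and 42.8 RPKM in fed controls, with 0 of 6 called in either genotype. Of 6 endothelial markers, 1 was called in each genotype, namely Lyve1, which rose (log2 0.997 ± 0.31 SE, adjusted p = 0.0449 in knockout livers and log2 1.28 ± 0.34 SE, adjusted p = 0.0142 in controls). Below 0 were 2 of the 6 in knockout livers and 1 of the 6 in controls. Of 5 cholangiocyte markers, 1, Spp1, fell in controls (log2 -0.73 ± 0.2 SE, adjusted p = 0.0166) and 0 were called in knockout livers. Below 0 were 4 of these 5 in controls and 3 in knockout livers, while Sox9 was above 0 in both genotypes. Of 5 erythroid markers, Alas2 fell in both genotypes (log2 -0.47 ± 0.13 SE, adjusted p = 0.0163 in knockout livers and log2 -0.76 ± 0.14 SE, adjusted p = 2.80e-04 in controls). The other 4, which are globin genes, were above 0 in knockout livers and below 0 in controls and were called in neither. The erythroid sum ranged from 399 to 738 RPKM in fasted and from 261 to 515 RPKM in fed knockout livers, and from 319 to 685 RPKM in fasted and from 280.3 to 735 RPKM in fed controls. The sum of pancreas markers (5 genes) ranged from 5.41 to 7.51 RPKM in fasted and from 10.7 to 27.1 RPKM in fed knockout livers, and from 3.11 to 7.69 RPKM in fasted and from 23.1 to 35.4 RPKM in fed controls. Only 2 of these 5 genes passed the filter on low counts, and 1 of the 2 was called lower in each genotype. The other tested gene was above 0 in knockout livers and below 0 in controls.

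The second question was what loss of Gpt2 did at each feeding state. No member was called by edgeR's quasi-likelihood test in fasted livers, in fed livers or averaged over feeding, where 0.00597%, 0.00597% and 0.0358% of all genes were called (0.0298% higher and 0.00597% lower in the averaged comparison). DESeq2 and limma also called 0 members in each. At an unadjusted p under 0.05 there were 6 of 38 members in fasted livers, 2 in fed livers and 3 averaged, while 4.01%, 9.01% and 8.71% of all genes had such a p. The median log2 fold change of knockout over control was 0.12 in fasted livers and -0.05 in fed livers, against 0.01 and 0.00 for all genes. In fasted livers 32 of 38 members were above 0 (51.3% of all genes were), and in fed livers 12 of 38 (50.4% of all genes).

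In fasted livers the 5 members with the smallest p were Masp1, Fgg, Fga, C2 and Cfb, none of which passed adjustment. Masp1 had 26.8 to 32.5 (median 31.0) RPKM in fasted knockout livers and 25.9, 28.8, 24.4, 18.9 and 21.9 RPKM in fasted controls, and the ranges overlapped. Its log2 change was 0.33 ± 0.11 (unadjusted p = 0.00468, adjusted p = 1.0). Fgg had a change of 0.33 ± 0.13, Fga of 0.31 ± 0.13, C2 of 0.45 ± 0.19 and Cfb of 0.70 ± 0.3. As means, fasted knockout livers had 126% of the fasted control level of Fgg and 124% of that of Fga, while fed knockout livers had 92.9% and 93.7% of the fed control levels.

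Endothelial cell markers (6 genes) had a median sum of 36.4 RPKM in fasted knockout livers and 26.3 RPKM in fasted controls, and 31.3 RPKM in fed knockout livers and 21.1 RPKM in fed controls, and 2 of 6 were called higher in knockout livers averaged over feeding. In fasted livers their median log2 change was 0.42, with 0 of 6 below 0 and 3 of 6 at an unadjusted p under 0.05. For Kupffer cell markers it was 0.75, with 0 of 6 below 0, 5 of 6 at such a p and 0 called, and their sum ranged from 35.4 to 81.6 RPKM in fasted knockout livers and from 35.8 to 46.6 RPKM in fasted controls. The part of these cells in the members' values was not tested.

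In fed livers the smallest p values belonged to F5, C8g, C9, C6 and Mbl1, and none passed. C8g had 144 to 159.7 (median 151) RPKM in fed knockout livers, all below the 184, 194, 166, 168 and 166 RPKM of fed controls, a separation downwards that 0.477% of all genes showed. Its change was -0.21 ± 0.091 (unadjusted p = 0.0247, adjusted p = 0.466). F5 had 0.28 ± 0.11, C9 -0.27 ± 0.13, C6 -0.24 ± 0.14 and Mbl1 -0.22 ± 0.13. Averaged over feeding, the smallest p values were those of F5, Masp1, C8g, Mbl1 and F11, with changes of 0.25 ± 0.081, 0.21 ± 0.076, -0.14 ± 0.064, -0.15 ± 0.09 and 0.27 ± 0.16, and the smallest adjusted p was 0.351.

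**Figure D5:**
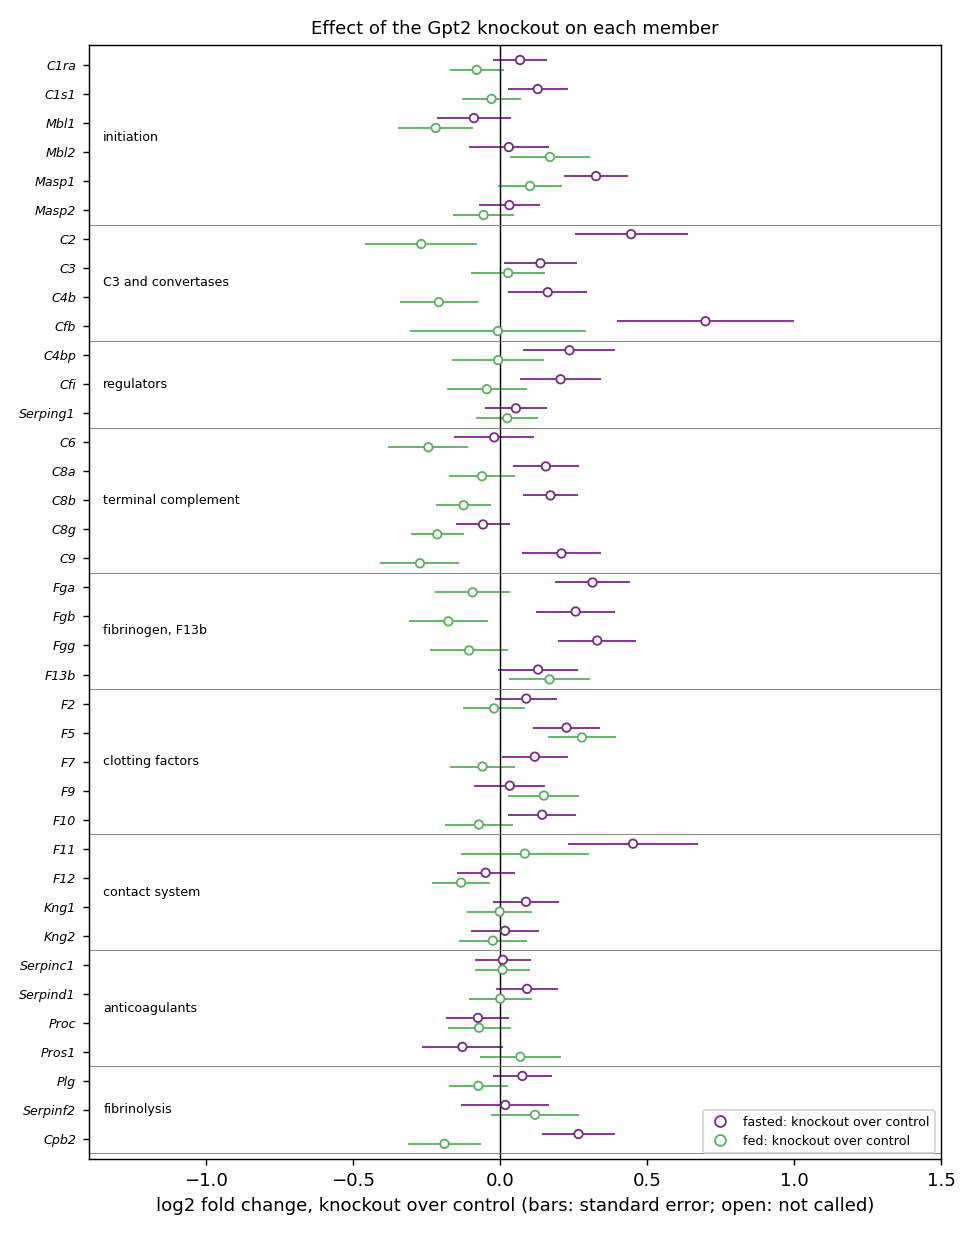
Log2 fold change of knockout over control livers for each member, in fasted livers (purple) and fed livers (green), ordered by role. Bars are standard errors, and all points are open because no adjusted p was under 0.05.

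The third question was whether the knockout changed the response to fasting. No member had an interaction that passed (edgeR, smallest adjusted p = 0.997), where 0.00597% of all genes did, and DESeq2 and limma called 0 as well. Unadjusted p values were under 0.05 for 7 of 38 members (18.4%), against 4.69% of all genes. The interaction, which is the knockout's fasting change minus the control's, was above 0 in 31 of 38 members, with a median of 0.15, against 50.7% of all genes and a median of 0.01. Other lists also leaned above 0. Acute phase genes had a median interaction of 0.57, with 1 of 18 below 0 and 7 of 18 at an unadjusted p under 0.05, and the further complement genes a median of 0.20, with 5 of 27 below 0. Erythroid markers had a median of 0.85, with 0 of 5 below 0, and Kupffer cell markers one of 0.45, with 0 of 6 below 0. The 5 smallest p values were those of C2, Cpb2, C9, Fgg and Fgb. Their interactions were 0.71 ± 0.27, 0.46 ± 0.18, 0.48 ± 0.19, 0.44 ± 0.19 and 0.43 ± 0.19 (log2 ± SE), with unadjusted p values of 0.0124, 0.0145, 0.0164, 0.0265 and 0.0301.

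Other genes of the same systems gave a wider view. Of 29 tested further coagulation genes, 5 fell in fasted knockout livers and 5 in fasted controls, and 0 rose in either. Of all genes, 3.26% fell and 2.88% rose in knockout livers, and 4.13% fell and 3.99% rose in controls. The coagulation genes that fell were Ggcx, the carboxylase that modifies vitamin K dependent factors, Habp2, a protease that can activate factor VII, Proz, which encodes protein Z, Serpina10, the protein Z dependent inhibitor, and Tfpi2, a serine protease inhibitor. Ggcx ranged from 9.85 to 15.3 RPKM in fasted and from 18.8 to 23.8 RPKM in fed knockout livers, and was at most 14.4 RPKM in fasted controls, against 17.8 to 23.6 RPKM in fed controls, with no overlap in either genotype. Serpina10 averaged 25.9 ± 3.70 RPKM in fasted and 39.2 ± 2.70 RPKM in fed knockout livers (SD, n = 6 each), and 25.0 ± 3.42 RPKM in fasted and 43.8 ± 5.13 RPKM in fed controls (SD, n = 5 each). The log2 change of Ggcx was -0.66 ± 0.11 SE in knockout livers and -0.69 ± 0.12 SE in controls (adjusted p = 6.86e-05 and 1.34e-04), and that of Serpina10 was -0.59 ± 0.11 SE in knockout livers and -0.81 ± 0.12 SE in controls (adjusted p = 2.49e-04 and 1.06e-05). In knockout livers Proz changed by log2 -0.54 ± 0.11 SE, Tfpi2 by -0.99 ± 0.14 SE and Habp2 by -0.48 ± 0.1 SE. Averaged over genotypes, 6 of the 29 fell and 2 rose, where 7.26% of all genes fell and 7.08% rose.

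Of 27 tested further complement genes, 1 fell in controls, where 4.13% of all genes fell, and 0 in knockout livers, where 3.26% did. The gene that fell was Hc, which encodes mouse C5, the step before the terminal genes above. Hc averaged 110.3 ± 12.9 RPKM in fasted and 129.8 ± 17.2 RPKM in fed knockout livers (SD, n = 6 each), and 95.2 ± 6.97 RPKM in fasted and 139.7 ± 18.9 RPKM in fed controls (SD, n = 5 each). The control change was log2 -0.55 ± 0.12 SE, adjusted p = 0.00148.

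Of 18 acute phase genes, 2 rose and 1 fell in fasted knockout livers, and 1 rose and 5 fell in fasted controls. Of all genes, 2.88% rose and 3.26% fell in knockout livers, and 3.99% rose and 4.13% fell in controls. Saa4, a constitutive serum amyloid, fell in both genotypes (log2 -0.73 ± 0.19 SE, adjusted p = 0.0184 in knockout livers and log2 -1.26 ± 0.21 SE, adjusted p = 2.59e-04 in controls), while Lbp, which binds endotoxin, rose in both (log2 0.61 ± 0.11 SE, adjusted p = 1.70e-04 and log2 0.63 ± 0.12 SE, adjusted p = 3.05e-04). Orm1, Orm2, Itih4 and Steap4 fell in controls, with Orm1 at log2 -0.93 ± 0.14 SE, adjusted p = 1.50e-05, and Hp, which encodes haptoglobin, rose in knockout livers (log2 0.84 ± 0.23 SE, adjusted p = 0.0297). Of 14 regulators of hepatocyte secretory genes, Hnf4a and Cebpd rose in fasted knockout livers (log2 0.48 ± 0.11 SE, adjusted p = 0.00373 and log2 1.42 ± 0.36 SE, adjusted p = 0.0196) and Nr1h4, the bile acid receptor gene, rose in fasted controls (log2 0.50 ± 0.12 SE, adjusted p = 0.00715). These calls, 2 of 14 in knockout livers and 1 of 14 in controls, stand beside the same shares of all genes.

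Over the 22 libraries, the genes outside the list whose log2 level most resembled the mean log2 level of the members were Proz (Pearson's r = 0.898, Spearman's rho = 0.898), Nrn1 (0.879 and 0.809) and Itih4 (0.878 and 0.881). These correlations run over libraries of 4 groups and share their scaling, and are given as a description.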

How the data were processed

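Reads of oligo-dT selected liver RNA were processed by the authors on GRCm38 with featureCounts (Subread 1.4.6-p5), bcl2fastq and STAR 2.5.1a, per the submitters' processing notes. Neither annotation release nor strand setting was given in the sources used here. The deposited tables hold raw counts per gene, CPM and RPKM. The deposited CPM and RPKM were only checked against the counts. Symbols came from GENCODE gene names. Analysis used R 4.3.3 and edgeR 4.0.16 on the deposited counts of 22 libraries in 4 groups, with TMM factors, a filter (minimum count 10, total 15), robust quasi-likelihood tests and Benjamini-Hochberg adjustment over 16757 genes. The fit was also run on counts simulated from its own means and dispersions, which cannot show whether the model suits these data. DESeq2 1.42.0 and limma 3.58.1 were alternatives, as were other scalings, filters and left-out libraries. Depth was 18390437 to 55284550 assigned reads per library, and no value for a library rests on imputation. Members and lists were chosen with earlier results of these data known. Named members are those with the smallest p in each role group and comparison, the partners within families, the 3 highest and 3 lowest levels, and called genes of the other lists with the smallest p. SE is the log2 fold change divided by the root of the F statistic.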

Additional observations from a re-analysis of the deposited data

Results flagged for a closer look

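There were 8 values that stood far from the rest of their group by Dixon's criterion, out of 152 group tests, of which chance alone flags about 1 in 20. Among complement genes, C3 was highest in replicate 4 of the fasted knockout livers at 2537 RPKM (others 1924 to 2118 RPKM) and in replicate 3 of the fed knockout livers at 2794 RPKM (others 1751 to 2112 RPKM). C4b was lowest in replicate 5 of the fasted controls at 151 RPKM (others 224 to 251 RPKM), and Cfb highest in replicate 5 of the fasted knockout livers at 3.84 RPKM (others 1.53 to 2.07 RPKM). Among clotting genes, F9 was highest in replicate 5 of the fed knockout livers at 65.3 RPKM (others 37.5 to 43.1 RPKM), and F10 in replicate 3 of that group at 214 RPKM (others 149 to 171 RPKM). F13b was highest in replicate 4 of the fed controls at 70.1 RPKM (others 48.5 to 54.8 RPKM). Cpb2 was lowest in replicate 3 of the fasted controls at 91.6 RPKM (others 97.6 to 99.7 RPKM).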

How the results depend on the processing

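Under RLE factors, library totals, other filters, left-out mitochondrial or member genes, DESeq2, limma, title-number clusters as a random block and fits of only the groups compared, the counts of members called stayed within 1.5 times, and in all settings run no fold change with a call turned round. With the kidney-rich library added (23 libraries), 1 member (C2) fell in controls, 0 in knockout livers and 0 averaged over genotypes. The cause was not tested, but that library held 282.8 RPKM of member transcripts. Leaving out 1 library at a time gave 12 to 19 members called in controls, 5 to 8 in knockout livers, 19 to 23 averaged, and 0 to 0 in each genotype comparison and the interaction. With only the 250 bases before the start, 1 member had the TATA box, against 2 in the whole window. The HNF1 motif then stood in 7 members (8 in the whole window), the C/EBP core in 4 (5) and the IL-6 response element in 5 (7). The labels give no replicate numbers shared between groups, so no pairing was assumed. With libraries of neighbouring title numbers as a random block (10 clusters, consensus correlation -0.0128 in limma), 18 members fell in controls, 7 in knockout livers and 20 averaged, where 3 rose.

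Calls lost without a single library were these. C9 in knockout livers lost its call without fed replicate 1, 3, 4 or 5 or fasted replicate 1, 2, 3 or 6. In controls, C1s1 did so without fed replicate 3, 4 or 5 or any fasted replicate, C2 without fed 3 or 5 or fasted 1, 2 or 5, C4b without fed 5 or fasted 5, C6 without fed 1, 3 or 5 or fasted 1, 2, 5 or 6, C8g without fed 1 or 2 or fasted 2, and Masp1 without fed 1, 2 or 5 or fasted 3, 5 or 6. Averaged over genotypes, C4b was lost without control fed 5 or control fasted 5, and Mbl1 without control fed 1 or 2, control fasted 1 or 3, or knockout fasted 4. C1ra lost its averaged call without 15 libraries in turn and C4bp without 12. Library totals also ended the averaged calls of Pros1 and C1ra and the control calls of C1s1 and C6. Dropping the filter on low counts ended the averaged call of C1ra and the control calls of C1s1, C8g and Masp1, and fitting only the groups compared ended the knockout call of C9 and the control call of Masp1. Cfb, the member with the fewest reads (50 to 495 per library), had a within-group SD of 25.1% to 44.6% of its mean.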
